A study of Mus musculus with 18 samples.

Results

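Photoreceptor transcription factors are described here by the RNA of 10 genes in mouse retina, namely Otx2, Crx, Crxos1, Neurod1, Rorb, Nrl, Nr2e3, Esrrb, Mef2d and Samd7. They were chosen by name for their place in photoreceptor gene control, and were selected on these mice, in that their fold changes with light and with TD139 were known when the set was drawn up. Crxos1 in particular was picked from the lowest fold changes of vehicle-treated against naïve mice, so that comparison is given for it as a description without a test. For the other genes the adjusted p-values are the output of the fit over all genes and are likewise read as descriptions. All 10 genes had a row among the 23420 gene symbols, and all 10 were among the 15196 genes with enough counts to be tested. RNA-seq was performed on whole retinas of 9 wild-type BALB/cJ mice aged 8 to 10 weeks, an albino strain whose photoreceptors are sensitive to bright light. The 3 naïve mice are labelled as having had no light and no treatment. The 3 vehicle-treated mice were exposed to 15000 lux of white light for 1 h and injected daily with the solvent, and the 3 TD139-treated mice were exposed alike and injected daily with 15 mg/kg TD139, a small-molecule inhibitor of the sugar-binding protein galectin-3, starting the day before the light. Light-exposed retinas were taken 4 days after the exposure. By these labels naïve mice differ from both other groups in treatment as well as in light, and the effects of light and of the injections cannot be told apart. The retinas were those of individual mice, which the labels number within each group.

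Rods and cones develop from progenitors under a cascade of transcription factors. OTX2 specifies photoreceptor precursors and switches on CRX, a related homeobox factor that binds the promoters of most photoreceptor genes. RORB acts upstream of NRL, the leucine zipper factor that directs precursors to the rod fate, and NRL in turn activates NR2E3, an orphan nuclear receptor that represses cone genes in rods. CRX, NRL and NR2E3 stay active in the adult rod and act together on rod genes such as those of phototransduction. NEUROD1, a basic helix-loop-helix factor, is required for photoreceptor survival, ESRRB is an orphan nuclear receptor that supports rod survival, MEF2D is a MADS-box factor that works with CRX at photoreceptor enhancers, and SAMD7 is a polycomb-associated repressor that keeps non-rod genes silent. Crxos1, listed as Crxos in the current annotation, lies opposite Crx. Not all of these genes are particular to photoreceptors. Otx2 is also used by bipolar cells and the retinal pigment epithelium, and Neurod1, Rorb and Mef2d by other retinal neurons.

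Several of these genes lie close to each other or to other transcripts. On mm10, Crx occupies chr7:15865947-15879968 on the minus strand and Crxos1 chr7:15882617-15904020 on the plus strand, so that they point away from each other with 2649 bases between their annotated starts and share no base. The sequences upstream of 4 genes are shown because the genes named for CRX binding and the 2 genes that were lowest in vehicle-treated mice bear on the results below. They are those of RefSeq on GRCm38.p6, from base -250 to base -1 of the annotated start on the strand of the gene, except that Crx ends at base -14 where an annotated exon begins. Capitals mark a core CRX and OTX site, TAATCC on either strand (GGATTA when it is read from the other strand), in Crx and Samd7, the core TGCTGA of NRL sites in Crxos1 and the core AAGTCA of NR2E3 sites in Esrrb.
Crx, chr7:15879969-15880205: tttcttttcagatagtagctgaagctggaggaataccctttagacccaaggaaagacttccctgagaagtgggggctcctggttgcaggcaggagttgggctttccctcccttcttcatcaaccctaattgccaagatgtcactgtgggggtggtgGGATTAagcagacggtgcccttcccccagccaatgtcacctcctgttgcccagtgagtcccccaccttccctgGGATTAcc
Crxos1, chr7:15882367-15882616: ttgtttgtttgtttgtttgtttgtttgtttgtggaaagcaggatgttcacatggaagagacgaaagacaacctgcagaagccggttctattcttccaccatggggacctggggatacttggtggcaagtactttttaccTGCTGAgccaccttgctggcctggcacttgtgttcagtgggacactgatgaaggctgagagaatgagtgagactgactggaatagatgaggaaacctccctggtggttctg
Samd7, chr3:30746043-30746292: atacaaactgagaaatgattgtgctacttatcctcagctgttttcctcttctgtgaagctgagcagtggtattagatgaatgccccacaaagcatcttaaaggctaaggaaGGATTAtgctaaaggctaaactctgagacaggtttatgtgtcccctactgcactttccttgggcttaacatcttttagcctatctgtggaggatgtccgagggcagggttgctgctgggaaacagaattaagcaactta
Esrrb, chr12:86360867-86361116: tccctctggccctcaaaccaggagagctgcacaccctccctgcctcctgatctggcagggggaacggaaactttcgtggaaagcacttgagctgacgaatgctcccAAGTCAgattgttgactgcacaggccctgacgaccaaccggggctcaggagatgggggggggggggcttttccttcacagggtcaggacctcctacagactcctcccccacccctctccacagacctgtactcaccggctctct

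Within windows of 250 bases before to 50 bases after a start, TAATCC was found in 3 of the 17 windows of the 10 genes, namely in Crx, Otx2 and Samd7. Crx held it at 2 places, from base -94 to -89 and from base -21 to -16. Among 32851 RefSeq promoter windows of the same length, 7.06% held this word. The NRL core TGCTGA was found in 6 of the 17 windows (of Crxos1, Otx2, Mef2d, Neurod1 and Rorb) and in 19.5% of all windows. The NR2E3 core AAGTCA was found in 2 of the 17 (Crxos1 and Esrrb) and in 15.1% of all windows, and the NEUROD E-box CAGATG in 2 of the 17 (Nrl and Otx2) and in 17.2%. The nuclear receptor core AGGTCA, which 16.3% of all windows held, and the MEF2 site CTAAAAATA, which 0.517% held, were found in none of the 10 genes. Both strands were searched, and the 10 genes have 17 windows because some have several annotated starts. No matches overlapped within a window, and a match is a description of letters only.

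Each mouse had 26171887 to 30201517 reads counted on genes. A count of 3, taken as the floor of detection, is 0.0993 to 0.115 CPM here, where CPM are counts relative to the library size with TMM factors. The floor covers counting error only. The rarest of the 10 genes, Crxos1, had 139 to 484 counts per mouse, and the most abundant, Nrl, 36467 to 81596. The tissue label was checked with 6 rod markers, whose sum was 53168 to 66258 CPM in naïve mice, 29997 to 43599 CPM with vehicle and 45639 to 58450 CPM with TD139. Vehicle-treated mouse 2 stood apart in lens crystallins and other lens genes, whose 7 markers summed to 8936 CPM there and to 39.2 to 405 CPM in the other mice. Its 9 markers of the retinal pigment epithelium also summed highest, at 457 CPM against 120.4 to 271 CPM in the other mice, with Best1 at or near 0 throughout. Calls of the 10 genes and of the gene lists are therefore also given without this mouse. TD139-treated mouse 1 was the lowest of its group in 9 of the 10 genes, all but Rorb, and vehicle-treated mouse 3 the lowest of its group in 8. The same mice had the highest microglia marker levels of their groups, as 8 microglia and macrophage markers summed to 87.6 CPM in TD139-treated mouse 1 against 21.5 and 22.8 CPM in the other TD139-treated mice, and to 267 CPM in vehicle-treated mouse 3 against 137 and 196 CPM. The part of this difference in the values below was not tested.

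In naïve retinas, Nrl was the most abundant transcription factor per length, with 517 ± 104 CPM per kilobase of its longest transcript (SD, n = 3). Crx followed with 465 ± 10.3 and Nr2e3 with 313 ± 9.79 CPM per kilobase. The ranges of Nrl (427 to 630.4) and Crx (457 to 477) overlapped, so that their order is not resolved. Esrrb had 129 ± 10.04, Neurod1 99.5 ± 11.4, Otx2 63.7 ± 7.24 and Samd7 46.7 ± 18.1 CPM per kilobase. Samd7 overlapped with both Otx2 and Mef2d, which had 31.5 ± 7.85, and Mef2d overlapped with Rorb, which had 22.8 ± 2.70. Crxos1 was lowest, with 7.15 ± 0.92 CPM per kilobase. The order depends on the length used, since per kilobase of all annotated exons Neurod1 (99.5) stood above Esrrb (92.0) and Otx2 had 39.1 CPM. In vehicle-treated mice the means per kilobase of the longest transcript had the same order. In TD139-treated mice, Neurod1 stood above Esrrb (116 ± 37.3 and 106 ± 16.7 CPM per kilobase), within their spread.

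**Figure D1:**
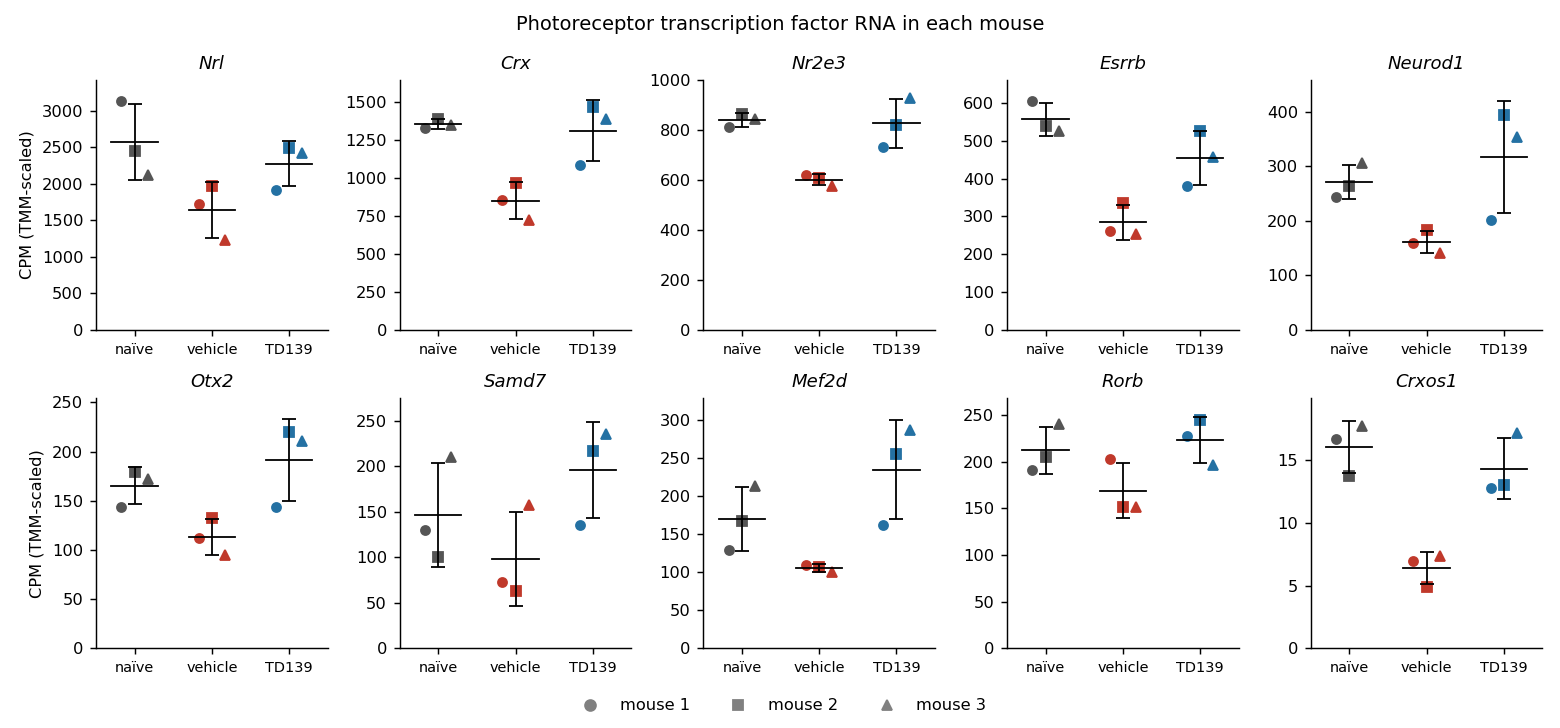
CPM (counts scaled to the library size, with TMM factors) of each gene in each mouse, with the vertical axis starting at 0. Symbols are single mice, horizontal lines the mean and error bars the SD (n = 3). All vehicle-treated mice lie below all naïve mice for 8 genes, whereas Rorb and Samd7 overlap.

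Light-exposed, vehicle-treated retinas were compared with naïve retinas to ask how light damage affects this regulatory layer. All 10 genes had a lower mean in vehicle-treated mice, from 39.8% of the naïve level for Crxos1 and 51.1% for Esrrb to 79.6% for Rorb. In 7 of the 9 genes other than Crxos1, every vehicle-treated mouse was below every naïve mouse, compared with 16.6% of all tested genes. At an adjusted p under 0.05, 3 of these 9 genes were called lower, namely Crx, Nr2e3 and Esrrb, compared with 2.89% of all tested genes called lower and 4.91% called higher. An unadjusted p under 0.05 was found for 8 of the 9, and for 13.2% of all tested genes in the lower direction. No inference is drawn from these counts, since the genes were chosen with this comparison in view. The median log2 fold change was -0.66 over the 10 genes and -0.00 over all tested genes, of which 5% were below -0.56. The calls depended on single mice. None of the 9 was called without naïve mouse 2, when only 1 of all tested genes was called. Without naïve mouse 1, naïve mouse 3, vehicle-treated mouse 1 or vehicle-treated mouse 3, Esrrb alone of the 9 was called, when 0.124 to 0.499% of all tested genes were called lower. Of the 9, 4 were called without vehicle-treated mouse 2 and 7 without TD139-treated mouse 1, when 2.30% and 5.28% of all tested genes were called lower. With all 9 mice DESeq2 called 7, and 7.00% of all tested genes lower. In bulk retina, fewer photoreceptors and less RNA per photoreceptor cannot be told apart.

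Otx2 and Crx stand at the head of the cascade. Otx2 was measured at 144, 179.5 and 172 CPM in naïve mice and at 112, 132 and 95.2 CPM in vehicle-treated mice. The groups did not overlap, and the log2 fold change was -0.54 ± 0.17 (SE, adjusted p = 0.0730). Crx was the steadiest gene among naïve mice, with 1333, 1391 and 1348 CPM, and had 859, 969.7 and 726 CPM in vehicle-treated mice. It fell by 0.67 ± 0.13 on the log2 scale (SE, adjusted p = 0.0224), with vehicle-treated mouse 3 the lowest. This call was lost when any of 5 mice was left out (naïve mice 1, 2 and 3, vehicle-treated mice 1 and 3), where the adjusted p reached 0.0823.

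Crxos1 had 16.7, 13.8 and 17.7 CPM in naïve mice, and 6.97, 4.91 and 7.32 CPM in vehicle-treated mice. All vehicle-treated mice were thus well below all naïve mice. Its log2 fold change of -1.33 ± 0.19 (SE) was the 23rd lowest of 15196 genes, the value for which it was picked. Crx, on the other side of the shared upstream region, ranked 411th.

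Neurod1 and Rorb act early in photoreceptor precursors and are kept in adult neurons. Neurod1 was at 244, 265 and 305 CPM in naïve and at 159, 183 and 141 CPM in vehicle-treated mice (log2 fold change -0.75 ± 0.22, SE, adjusted p = 0.0618). Its groups did not overlap. Rorb was at 191, 205 and 239.8 CPM in naïve mice and at 203, 152 and 151 CPM in vehicle-treated mice. Here vehicle-treated mouse 1 lay within the naïve range, and the log2 fold change of -0.33 ± 0.14 was the smallest of the 10 (SE, adjusted p = 0.149).

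Nrl and Nr2e3 define the rod. Nrl was read at 3135, 2455 and 2125 CPM in naïve mice, a spread of 20.0% of the mean, and at 1725, 1969 and 1225 CPM in vehicle-treated mice. The groups did not overlap, but the change of -0.65 ± 0.19 on the log2 scale had an adjusted p of 0.0616. It was called without vehicle-treated mouse 2 (adjusted p = 0.0447). Nr2e3 was far more even, with 811, 863 and 845 CPM in naïve and 619, 609.5 and 575 CPM in vehicle-treated mice. It fell by 0.48 ± 0.10 on the log2 scale (SE, adjusted p = 0.0249). As for Crx, the call was lost when any of the same 5 mice was left out, with an adjusted p up to 0.0950.

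Esrrb showed the second largest difference, with 605, 538 and 525 CPM in naïve mice and 262, 336 and 254 CPM in vehicle-treated mice. It fell by 0.97 ± 0.14 on the log2 scale (SE, adjusted p = 0.0127), and was called in every alternative but the one without naïve mouse 2 (adjusted p = 0.0651). Mef2d was at 129, 168 and 214 CPM in naïve mice and within a narrow range of 110.1, 107 and 101 CPM in vehicle-treated mice. Its log2 fold change was -0.69 ± 0.22 (SE, adjusted p = 0.0822). Samd7 varied most between mice, with 130.2, 100.3 and 210.4 CPM in naïve and 73.0, 63.2 and 157 CPM in vehicle-treated mice. Mouse 3 was the highest of both groups, the groups overlapped, and the log2 fold change was -0.59 ± 0.43 (SE, adjusted p = 0.419).

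**Figure D2:**
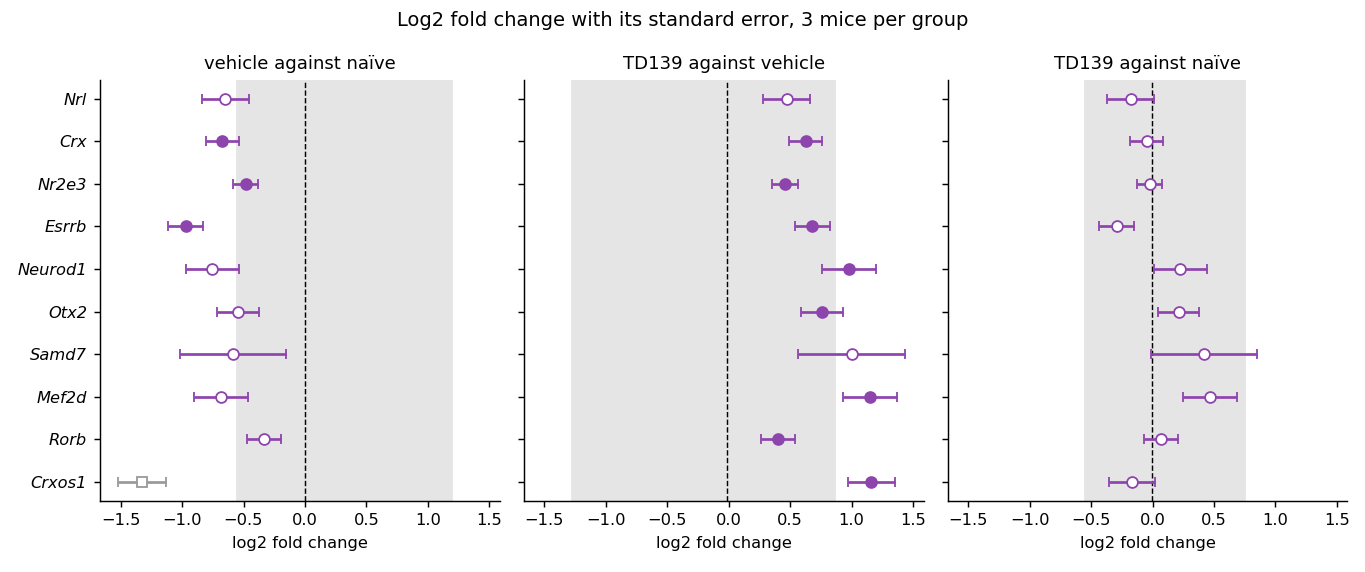
Log2 fold change of each gene with its standard error from the fit over all 9 mice, for the 3 comparisons. Filled circles have an adjusted p under 0.05, the grey square is Crxos1 in the comparison by which it was picked and carries no test, the dashed line is the median of all tested genes and the grey band spans their 5th to 95th percentile, for example -0.56 to 1.20 for vehicle-treated against naïve mice. The circle of Crxos1 for TD139 against vehicle is not independent of that choice, since the vehicle-treated mice are the same.

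TD139-treated and vehicle-treated retinas were compared to ask what galectin-3 inhibition does after the same light. All 10 genes had a higher mean in TD139-treated mice. Of the 9 genes other than Crxos1, whose low vehicle-treated values are those it was picked for, 7 were called higher, namely Crx, Nr2e3, Otx2, Esrrb, Mef2d, Neurod1 and Rorb. Of all tested genes, 17.2% were called higher and 16.2% lower. In 6 of the 9, all but Nrl, Rorb and Samd7, every TD139-treated mouse was above every vehicle-treated mouse, compared with 26.0% of all tested genes. The median log2 fold change was 0.72 over the 10 genes and -0.02 over all genes. This comparison shares its vehicle-treated mice with the one above, so that a low vehicle-treated value enters both, and the values are set side by side only. Without vehicle-treated mouse 2, 7 of the 9 were called, with Nrl (adjusted p = 0.0456) in place of Rorb (adjusted p = 0.132), when 12.5% of all tested genes were called higher. Without TD139-treated mouse 1, Nrl again stood in place of Rorb among 7 called genes, when 19.4% of all tested genes were called higher. Fewer genes were called without TD139-treated mouse 2 (5 of the 9, with 5.61% of all tested genes higher and 4.91% lower) and TD139-treated mouse 3 (6 of the 9, with 6.80% and 5.62%), and without vehicle-treated mouse 3 it was 7 of the 9, with 8.07% and 8.37%.

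The TD139-treated range of each homeobox gene overlapped with its naïve range. Crx was at 1084, 1469 and 1387 CPM, every mouse above the highest vehicle-treated mouse, and rose by 0.63 ± 0.13 on the log2 scale against vehicle (SE, adjusted p = 0.00834). Otx2 was at 144, 220.0 and 210.3 CPM and rose by 0.76 ± 0.17 (SE, adjusted p = 0.0103), a call lost without TD139-treated mouse 2 (adjusted p = 0.0502). Crxos1 was at 12.8, 13.0 and 17.2 CPM, and its log2 fold change of 1.16 ± 0.19 (SE, adjusted p = 0.00568) was the highest of the 10. Since it was picked for its low vehicle-treated values, that last figure is not independent of the choice.

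Among the rod determinants, Nr2e3 was at 733, 818 and 926 CPM in TD139-treated mice and rose by 0.46 ± 0.10 (log2, SE, adjusted p = 0.00954). Nrl was at 1918, 2484 and 2418 CPM. Mouse 1 was within the vehicle-treated range, and the log2 fold change was 0.47 ± 0.19 (SE, adjusted p = 0.0775). Esrrb was at 382, 525 and 457 CPM, above all vehicle-treated mice and, at 81.7% of the naïve mean, the furthest below naïve. It rose by 0.68 ± 0.14 against vehicle (log2, SE, adjusted p = 0.00756).

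Mef2d, Neurod1 and Samd7 had means in TD139-treated mice above the naïve means, with overlap between the 2 groups. So did Otx2 and Rorb, at 116% and 105% of the naïve mean. Mef2d was at 162, 256 and 287 CPM, 138% of the naïve mean, and rose by 1.15 ± 0.22 against vehicle (log2, SE, adjusted p = 0.00716). Neurod1 was at 202, 395 and 355 CPM and rose by 0.98 ± 0.22 (log2, SE, adjusted p = 0.0109). Its mouse 1 lay near vehicle-treated values, whereas mice 2 and 3 lay above all naïve mice. Samd7 was at 136, 217 and 236 CPM, overlapping with both other groups, and its log2 fold change of 1.00 ± 0.44 had an adjusted p of 0.113. It was called without vehicle-treated mouse 3 (adjusted p = 0.0358).

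Rorb was at 227, 245 and 196 CPM in TD139-treated mice, and its log2 fold change against vehicle was 0.40 ± 0.14 (SE, adjusted p = 0.0443). One vehicle-treated mouse, at 203 CPM, lay within that range. The call was lost in 11 of 21 alternatives, among them each fit without a TD139-treated mouse and those without naïve mouse 2, vehicle-treated mouse 2 or vehicle-treated mouse 3, where the adjusted p reached 0.163. Its direction reversed, to a log2 fold change of -0.23 (adjusted p = 0.138), once each mouse was corrected for transcript length and GC content together, and the parts of length and GC content were not separated. Rorb has the longest transcript of the 10 genes, 9293 bases, and the lowest GC content, 41.6%. Over 15068 genes the log2 fold change against vehicle rose with transcript length (Spearman's correlation 0.49) and fell with GC content (-0.36), genes not being independent replicates. The median was -0.45 in the tenth of genes with the shortest transcripts and 0.46 in the tenth with the longest. The other 9 genes remained above 0 after the correction, with Mef2d at 1.03, Neurod1 at 0.96, Crx at 0.71 and Nr2e3 at 0.69. Crx, Nr2e3, Otx2, Esrrb, Mef2d and Neurod1 were still called. So was Crxos1, but its low vehicle-treated values are those it was picked for. Of all 15196 genes, 1527 were called higher and 1615 lower, fewer than without the correction (2617 and 2455). For vehicle-treated against naïve mice the correlations were -0.11 with length and 0.12 with GC content, and for TD139-treated against naïve mice 0.59 and -0.39.

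**Figure D3:**
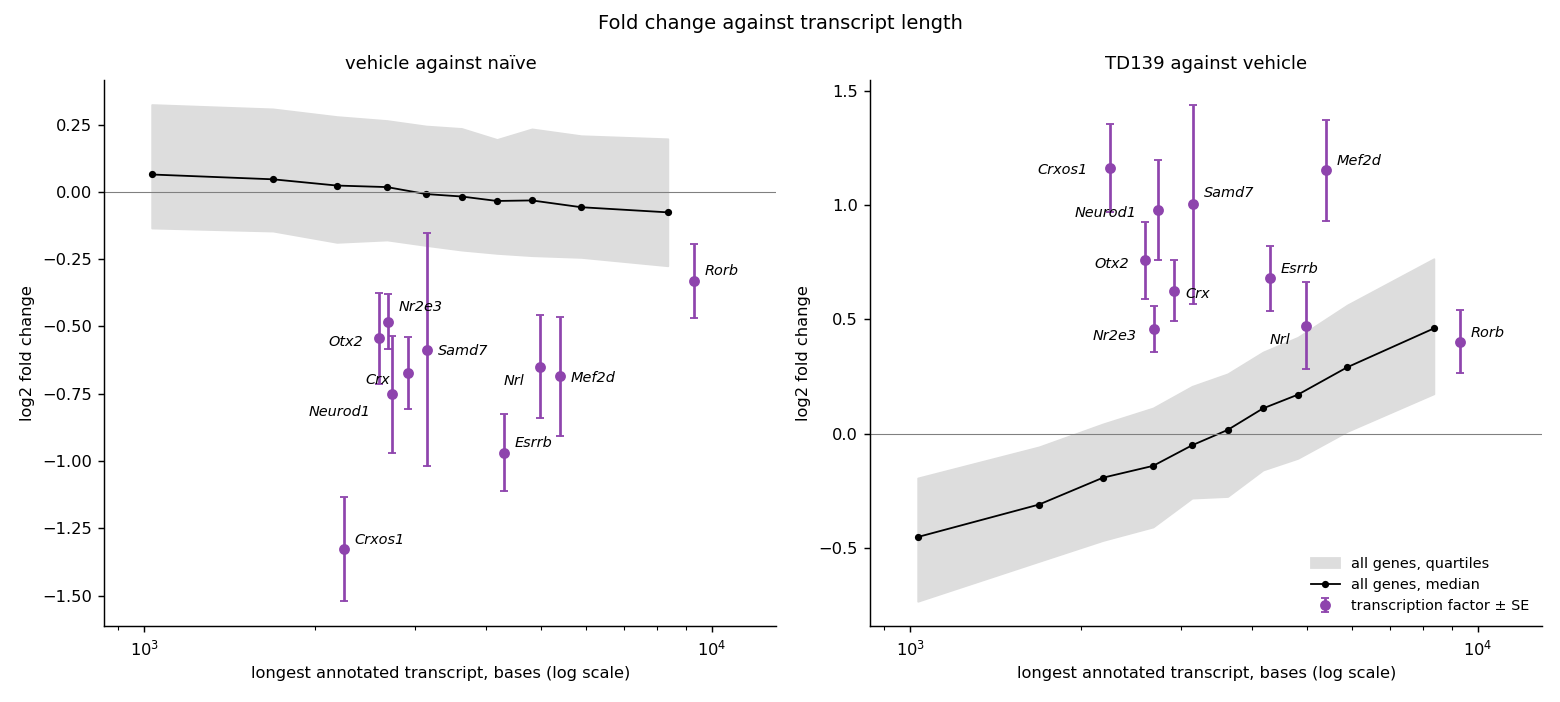
Log2 fold change against the length of the longest annotated transcript in bases, on a log axis, for 2 comparisons. Black points and line are the medians of all tested genes in 10 bins of equal size and grey their quartiles. Purple points are the 10 transcription factors with their standard errors. For TD139 against vehicle the median rises from -0.45 to 0.46 with length, and Rorb at 9293 bases lies near that line.

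Between TD139-treated and naïve mice, none of the 10 genes was called, none had an unadjusted p under 0.05 with edgeR, and DESeq2 called 0 as well (7.61% of all tested genes lower and 9.40% higher). All 10 overlapped between the groups, whereas 16.8% of all tested genes were lower and 15.3% higher without overlap. Of all tested genes 2.38% were called lower and 2.72% higher, but 0 when naïve mouse 1, naïve mouse 2, vehicle-treated mouse 2, TD139-treated mouse 2 or TD139-treated mouse 3 was left out, and 7.49% and 9.87% without naïve mouse 3. The log2 fold changes ran from -0.29 ± 0.14 for Esrrb (SE, adjusted p = 0.195) to 0.47 ± 0.22 for Mef2d (SE, adjusted p = 0.190), with 5 genes below 0 and a median of 0.02. Crx at -0.05 ± 0.13 and Nr2e3 at -0.02 ± 0.10 were closest to naïve, but turned to 0.036 and 0.16 with the correction for length and GC content, and Rorb turned from 0.07 to -0.46. Without TD139-treated mouse 1, Mef2d (0.68, adjusted p = 0.0355) and Neurod1 (0.48, adjusted p = 0.0439) were called higher than naïve, as were 6.74% of all tested genes. A p-value above the threshold does not show that the levels were restored. Over all genes, the split of higher and lower calls moved with scaling. With library size alone, 893 genes were called higher and 258 lower for vehicle against naïve (746 and 439 with TMM), 1942 and 3040 for TD139 against vehicle (2617 and 2455 with TMM), and 366 and 194 for TD139 against naïve (413 and 362 with TMM). No direction among the 10 genes changed with that scaling.

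The rod genes on which these factors act were measured in the same retinas. Of 35 rod target genes (phototransduction, outer segment and rod ciliary genes), all 35 were below 0 in vehicle-treated against naïve mice, 22 were called lower (2.89% of all tested genes) and 0 higher, with a median log2 fold change of -0.63. These calls fell to 0 or 1 when naïve mouse 1, 2 or 3 or vehicle-treated mouse 1 or 3 was left out, and to 13 without TD139-treated mouse 3. Gnat1, the rod transducin, fell by 0.59 on the log2 scale. Sag, the rod arrestin, had -0.26 and was not called. The called genes with the largest values were the photoreceptor kinase Grk1 (-0.90), the ciliary kinase Mak (-0.83) and phosducin, Pdc (-0.79). In TD139-treated against vehicle-treated mice 21 were called higher and 0 lower (17.2% and 16.2% of all tested genes), with a median of 0.50. Gucy2f (1.40), Rp1 (1.36) and Kcnv2 (1.27) had the largest called values. Against naïve mice 1 of the 35 was called in TD139-treated mice, Guca1a (-0.47), with 2.38% of all tested genes called lower. Without naïve mouse 3, 4 were called lower (7.49% of all tested genes), and without TD139-treated mouse 1, 4 were called higher (6.74%). None was called with any other mouse left out. Without vehicle-treated mouse 2, 25 were called lower than naïve (2.30% of all tested genes) and 23 higher with TD139 than with vehicle (12.5%). The latter count was 10 without TD139-treated mouse 2 (5.61% of all tested genes), 11 without TD139-treated mouse 3 (6.80%) and 11 without vehicle-treated mouse 3 (8.07%). The list was drawn up with earlier results of these mice known and is no independent evidence of direction. Of 12 cone genes 0 were called for vehicle against naïve, with a median of -0.20. Of those with the most counts, Gnb3 was called lower with TD139 than with vehicle (-0.62), while Opn1sw and Arr3 were not called, and Cnga3 (0.56) and Kcne2 (0.40) were called higher. Of the 12 cone genes, 0 were called in this comparison without TD139-treated mouse 2 or 3, and 1, higher, without vehicle-treated mouse 3.

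Each transcription factor was then set against this rod pool, as counts per 1000 counts of the 35 rod target genes in the same mouse. The pool took 11.4 to 12.7% of gene counts in naïve mice, 7.20 to 9.49% with vehicle and 9.79 to 11.5% with TD139. By this measure Crx was at 10.1, 11.5 and 11.5 in naïve and at 10.4, 10.3 and 10.8 in vehicle-treated mice, 95.2% of naïve, and Nrl at 96.6%. Nr2e3 (110.0%), Otx2 (103%), Mef2d (94.6%), Neurod1 (89.9%), Rorb (122%) and Samd7 (108%) also overlapped with naïve. In Esrrb, and in Crxos1, which was picked for its low values, all vehicle-treated mice stayed below all naïve mice, as in 0.309% of all tested genes by the same measure, while 66.5% of all tested genes were higher without overlap. Esrrb had 4.59, 4.45 and 4.49 per 1000 rod counts in naïve mice and 3.18, 3.58 and 3.77 in vehicle-treated mice, 77.9% of naïve. Crxos1 had 0.127, 0.114 and 0.152 in naïve and 0.0846, 0.0524 and 0.109 in vehicle-treated mice, 62.7% of naïve. These ratios are descriptions and were not tested. Without vehicle-treated mouse 2, the vehicle-treated mean was 77.1% of naïve for Esrrb and 74.0% for Crxos1, and that of the other genes 90.9 to 136%.

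In TD139-treated mice, Esrrb was at 4.02, 4.35 and 4.15 per 1000 rod counts, above all vehicle-treated mice and below all naïve mice. Crx (11.4, 12.2 and 12.6) was above all vehicle-treated mice, at 115% of their mean. Mef2d had the largest ratio of those that did not overlap, with 1.70, 2.12 and 2.61 in TD139-treated against 1.34, 1.14 and 1.50 in vehicle-treated mice (162%). Neurod1 (144%) and Otx2 (125%) were also higher without overlap. These 5 genes compare with 6.33% of all tested genes that were higher and 43.1% that were lower without overlap by the same measure. Otx2 was in addition above all naïve mice, with 1.51, 1.82 and 1.91 against 1.09, 1.48 and 1.47. Against naïve mice by this measure, 27.1% of all tested genes were higher and 2.22% lower without overlap. Nrl (104%), Nr2e3 (102%) and Rorb (97.9%) were close to the vehicle-treated mean by this measure. Transcript length moved with these values as described above and its part was not tested for the ratios.

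**Figure D4:**
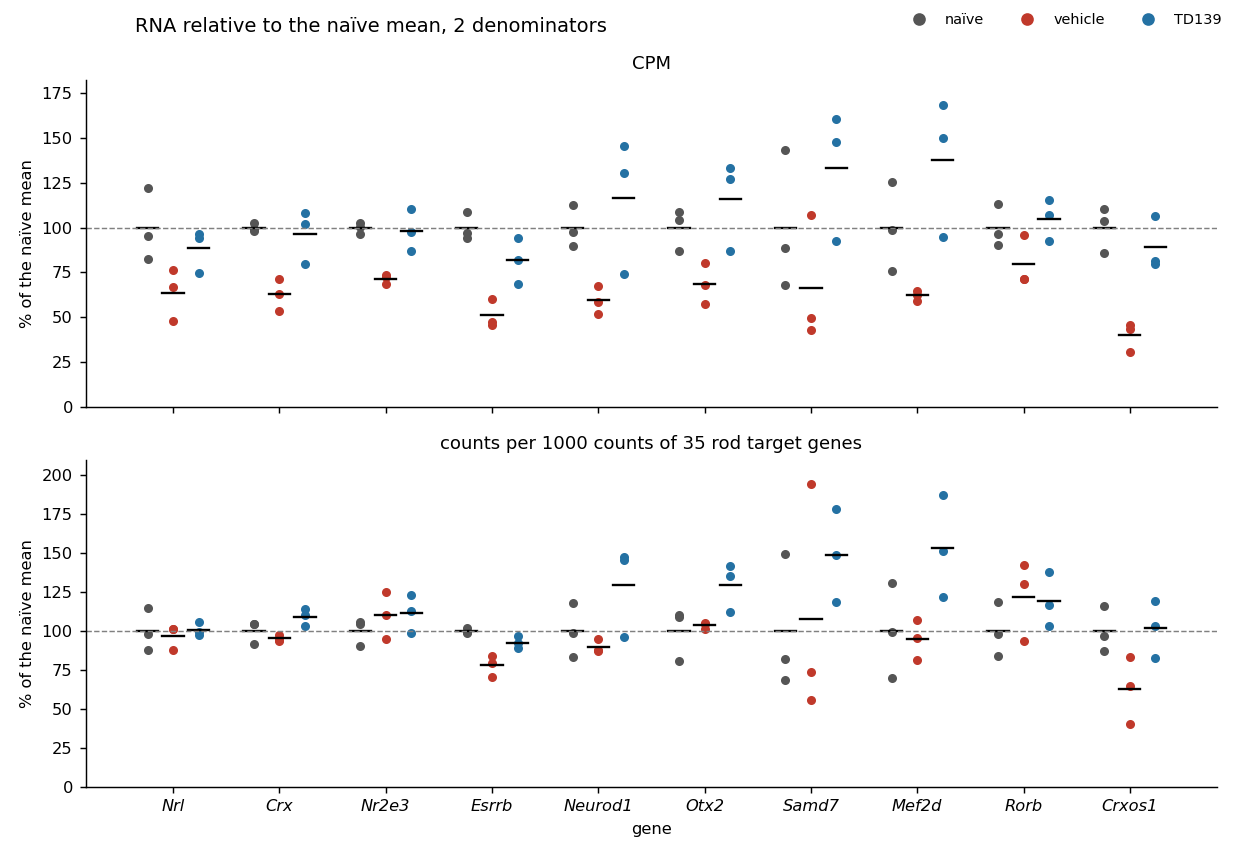
Each mouse as a percentage of the naïve mean (y axis, from 0), for CPM (top) and for counts per 1000 counts of 35 rod target genes (bottom). Points are mice and lines are group means. Vehicle-treated means lie at 39.8 to 79.6% in the top panel, whereas in the bottom panel only Crxos1 and Esrrb have all vehicle-treated mice below all naïve mice.

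Other regulators known from photoreceptors did not move as one group. Of 24 such genes, 2 were called lower and 1 higher in vehicle-treated against naïve mice, with a median of -0.27. In TD139-treated against vehicle-treated mice 12 were called higher and 3 lower, with a median of 0.45. Of all tested genes, 2.89% were called lower and 4.91% higher in the first comparison, and 17.2% higher and 16.2% lower in the second. Samd11, a partner of Samd7 in rods and the most abundant of the list, fell by 0.66 on the log2 scale (adjusted p = 0.0127) and rose by 0.49 with TD139 (adjusted p = 0.00705). Pias3, which modifies NR2E3, fell by 0.49. The receptor gene Notch1, which holds progenitors back from the photoreceptor fate, was called higher (0.62) and lower with TD139 (-0.36). Casz1 had -0.96 and was not called (adjusted p = 0.0621), and the clock receptor gene Nr1d1 had -0.01. With TD139 the largest called values were those of Onecut1 (2.12), which had under 2 CPM on average in each group, Rora (2.06) and Sp4 (1.33). Against naïve mice 1 gene was called in TD139-treated mice, Rax (-0.43), and none without vehicle-treated mouse 2. Without naïve mouse 3, 1 was called lower and 5 higher (7.49% and 9.87% of all tested genes). Without TD139-treated mouse 1, 0 were called lower and 1 higher (3.97% and 6.74%). Of 12 relatives of the MEF2, ROR, ESRR, NEUROD, OTX and NR2E families, 1 was called for vehicle against naïve, Nr2e1 (0.65), and 5 higher and 1 lower for TD139 against vehicle. Rora, Mef2a (1.39) and Mef2c (1.07) had the largest values, Neurod4 rose by 0.64 and Esrrg by 0.83, while Esrra fell by 0.37. Rora and Mef2c stand in both lists. Without vehicle-treated mouse 2, the calls of the 24 genes were 3 lower and 1 higher for vehicle against naïve and 12 higher and 2 lower for TD139 against vehicle, those of the 12 relatives 1 higher (Nr2e1) and then 4 higher and 1 lower, and among the cone genes Opn1mw was called lower than naïve. With any naïve mouse or vehicle-treated mouse 1 or 3 left out, 0 or 1 gene of each of these lists was called for vehicle against naïve. The 12 higher calls with TD139 became 6 to 8, and the 5 of the relatives 1 or 2, without TD139-treated mouse 2 or 3 or vehicle-treated mouse 3. In these fits 5.61 to 8.07% of all tested genes were called higher.

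Across the 9 mice, log2 CPM of the 10 genes correlated in pairs from Pearson's r = 0.19 for Nrl and Samd7 to 0.97 for Otx2 and Neurod1. These are descriptions over mice that share groups, depth and the rod content of the retina. Crx correlated most with Esrrb and Nr2e3 (both 0.95), and with Crxos1 at 0.81 (Crxos1 ranked 1240th in likeness to Crx among 13092 genes with 50 or more counts on average). The 5 genes most like Crx over the 9 mice were Stard7, Crb2, Wdr78, Pex5l and Abca13 (r from 0.98 to 0.99). Those most like Nrl were Csda, BB283400, Gm16119, Nxnl1 and Fabp12 (0.98 to 0.99), of which Nxnl1, a rod-derived survival factor gene, belongs to the rod target list. Those most like Crxos1 were Rrnad1, Dnase1l2, Frmpd1, Samd11 and Stag3 (0.96 to 0.98). None of the 10 genes was among these neighbours.

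Transcripts that share exonic bases with Otx2, Mef2d and Neurod1 limit those values. The strand setting of the counting is not given in the sources used here. Gm15507, Gm49154 and Gm26755 share 61, 168 and 154 exonic bases with Nr2e3, Otx2 and Neurod1, but had no row among the counts. The transcripts below were examined after their values were seen. Gm7616 lies antisense to Nr2e3 without sharing exonic bases and had 42.5% of its naïve level in vehicle-treated mice (2.97 ± 0.86 against 6.99 ± 1.90 CPM, SD, n = 3, adjusted p = 0.0282), while Nr2e3 had 71.6%. Otx2os1 shares 154 exonic bases with Otx2 on the opposite strand and was at 82.5% of naïve with vehicle (adjusted p = 0.167) and at 72.4% with TD139, where Otx2 was at 116%. 1700113A16Rik shares 531 of the 5985 exonic bases of Mef2d and was at 106% of naïve with vehicle, where Mef2d was at 62.2%. Cerkl shares 201 bases with Neurod1 on the same strand. It was at 33.8 ± 3.61 CPM in vehicle-treated and 64.8 ± 10.97 CPM in TD139-treated mice (SD, n = 3, adjusted p = 0.00743), and how reads in the shared stretch were assigned is not known here. Between both sequencing runs of a mouse, the level of a member differed by a median of 2.10% (higher over lower run) and by 26.3% at most, for Crxos1 in vehicle-treated mouse 2.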

How the data were processed

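RNA-seq of whole retina from 9 mice was used (3 naïve, 3 vehicle-treated, 3 TD139-treated, groups from the labels). The authors prepared stranded poly(A) libraries, sequenced them on 2 flow cells and deposited, for each mouse and run, counts of reads per gene from BaseSpace RNA Express. Their data statement speaks of normalized counts, but the values used here are whole numbers whose totals differ between libraries and were taken as unscaled counts. The build is mm10 per the submitters' processing notes, and the annotation and strand setting are not given in the sources used here. The counts of both runs were summed, so that each mouse is 1 replicate. Retinas came from individual mice. Reads on no feature (16.5 to 22.8%) and ambiguous reads (0.303 to 0.471%) were left out.

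All genes were fitted together with edgeR 4.0.16 in R 4.3.3 (filterByExpr, TMM, robust quasi-likelihood F test, all 9 mice, no covariate), with Benjamini-Hochberg adjustment over 15196 genes and calls at an adjusted p under 0.05. The SE is the log2 fold change divided by the square root of F. Alternatives were DESeq2 1.42.0, limma 3.58.1 voom, other scalings and filters, only the groups compared, the replicate number as a block, single runs, a spline correction with 4 degrees of freedom for transcript length and GC content, and each mouse left out. The steps were tested on simulated data. Positions and lengths are those of GENCODE M21 on GRCm38 (98.44% of symbols joined, Crxos1 by an older symbol), and promoters those of RefSeq.

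The 10 genes and the 16 gene lists were chosen with earlier results of these data known. Named are the 10 genes, for each list up to 3 genes with most counts and up to 3 called genes with the largest fold change per comparison, genes of counts of 5 or fewer, and the 5 genes most correlated with Crx, Crxos1 and Nrl among genes with 50 or more counts on average. A few genes that this rule names are not reported here. Imaging and quantitative PCR were not analysed here.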

Additional observations from a re-analysis of the deposited data

How the results depend on the processing

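The 10 genes were recomputed under 21 alternatives. For vehicle against naïve, where 3 were called besides Crxos1, the count was 7 with DESeq2 (7.00% of all genes called lower), 6 with only the groups compared (3.73%) and 0 to 7 when a mouse was left out. With Crxos1, which carries no test there, these are 4, 8, 7 and 0 to 8. For TD139 against vehicle the count besides Crxos1 was 5 to 8 under all alternatives, against 7, while 5.61 to 19.9% of all genes were called higher. With Crxos1, whose low vehicle-treated values enter this comparison too, it was 6 to 9, against 8. For TD139 against naïve it was 0 in all but 1, and 0 to 2 when a mouse was left out. All 10 directions held for vehicle against naïve under all alternatives. For TD139 against vehicle only Rorb reversed, to -0.23 with the length and GC correction and to -0.24 with the block added. For TD139 against naïve, Rorb reversed to -0.46 and -0.47, Crx to 0.036 and 0.027 and Nr2e3 to 0.16 and 0.16 under the same 2 settings, and with a mouse left out Crx ran from -0.13 to 0.083 and Nr2e3 from -0.10 to 0.064. With the replicate number as a block, 4 genes besides Crxos1 were called for vehicle against naïve (Otx2 added, adjusted p = 0.0497; 5 with Crxos1; 2.24% of all genes lower), 8 with Crxos1 for TD139 against vehicle (Samd7, adjusted p = 0.0160, in place of Rorb, adjusted p = 0.0647; 2436 of all genes higher) and 0 for TD139 against naïve. Deviations of same-numbered mice from their group means correlated from -0.26 to 0.28, and those of differently numbered mice from -0.28 to 0.23. With 3 mice per group this cannot decide whether the numbers pair the mice. Samd7 was highest in mouse 3 of each group. Over all genes, the 362 lower and 413 higher calls for TD139 against naïve became 0 with the block, the length and GC correction or any of 5 mice left out, and 1 with only the groups compared. The causes were not tested. Samd7 had the largest SE of the 10 genes (0.43 for vehicle against naïve), and its TD139-against-vehicle difference was also called with limma voom (adjusted p = 0.0385).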

Other observations

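Regulators of other retinal cell types were measured in the same mice. Of all tested genes, 4.91% were called higher and 2.89% lower for vehicle against naïve. For TD139 against vehicle these shares were 17.2% and 16.2%. Of 11 Müller glia regulators, 5 were called higher and 0 lower in vehicle-treated against naïve mice (median log2 fold change 0.59), and 0 higher and 5 lower in TD139-treated against vehicle-treated mice, with a median of -0.46. Sox2 rose by 0.92, Nfib by 0.88 and Sox9 by 0.82 in vehicle-treated mice, and Hes1 (-0.99), Id1 (-0.89) and Id3 (-0.88) had the largest called values with TD139. Without vehicle-treated mouse 2, 5 were called higher and then 4 lower. The 5 higher calls became 0 to 3 when any naïve mouse or vehicle-treated mouse 1 or 3 was left out, and the 5 lower calls 2 or 3 without TD139-treated mouse 2 or 3 and 8 without TD139-treated mouse 1. Of 10 bipolar cell regulators, 0 were called for vehicle against naïve with edgeR. For TD139 against vehicle 3 were called higher and 2 lower, beside 17.2% and 16.2% of all tested genes, and no result about the list is drawn. Neurod4 (0.64) and Lhx4 (0.63) were among the higher calls, but none of the 10 was called higher without vehicle-treated mouse 2 or TD139-treated mouse 2 or 3. Of 16 tested amacrine, horizontal and ganglion cell regulators, 1 was called higher for vehicle against naïve (Lhx9, 0.60) and 1 for TD139 against vehicle (Prox1, 0.80). The Lhx9 call was lost on leaving out vehicle-treated mouse 1 or 3, TD139-treated mouse 3 or any naïve mouse. Prox1 was no longer called once vehicle-treated mouse 3 was dropped, or either of TD139-treated mice 2 and 3.

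Marker lists of the cell types gave these calls for vehicle against naïve, where 4.91% of all tested genes were called higher and 2.89% lower. Of 8 microglia and macrophage markers 5 were called higher (median 2.22), of 7 Müller glia markers 4 higher (median 0.78), and of 6 rod markers, which include Nrl and Nr2e3, 5 lower (median -0.62). None of 5 cone, 8 bipolar, 7 amacrine and horizontal, 7 ganglion cell, 8 tested retinal pigment epithelium and 7 lens markers was called with edgeR. Without vehicle-treated mouse 2, 6 microglia and macrophage and 4 Müller glia markers were called higher, all 6 rod markers lower, and 1 cone marker lower and 1 bipolar marker higher. When any naïve mouse or vehicle-treated mouse 1 or 3 was left out, 0 or 1 marker of each list was called. For TD139 against vehicle, 6 of the 8 microglia and macrophage markers were called lower (median -1.995), 2 retinal pigment epithelium markers lower (Rpe65 and Ttr, median of the list -0.81), 1 Müller glia marker lower (Apoe) and 4 rod markers higher (median 0.46). Also called were 4 bipolar markers higher and 2 lower, 2 amacrine and horizontal cell markers lower (Calb2 and Slc32a1), 1 ganglion cell marker lower (Sncg), 1 lens marker lower (Cryab) and 0 cone markers. Of all tested genes, 17.2% were called higher and 16.2% lower in this comparison. The microglia and macrophage count was again 6 without vehicle-treated mouse 2, when no retinal pigment epithelium marker was called and 6 rod markers were called higher. Without TD139-treated mouse 2 or 3 or vehicle-treated mouse 3, 2 or 3 microglia and macrophage markers and 1 rod marker were called. Of the other marker lists, only 1 or 2 bipolar markers, higher, were called in these fits. Of all tested genes, 4.91 to 8.37% were then called lower and 5.61 to 8.07% higher. The part of these markers in the values of the 10 genes was not tested.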
